A study of Nicotiana tabacum with 6 samples.

Results

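The gene models described here are the small heat shock proteins of tobacco leaf together with the other proteins that share their fold. They are the rows of the deposited table whose domain description names the alpha crystallin/Hsp20 domain or the HSP20-like chaperone fold, without Hsp90 or DnaJ. Of 69500 gene models in the table, 123 matched this description, and 69 of them had at least 1 FPKM (fragment counts divided by transcript length and by the mapped fragments of a library) in at least 3 of the 6 libraries. The rule used descriptions and a minimum level, not the difference between the lines. It was chosen with earlier results of these data known. The same minimum was met by 32340 gene models of the whole table.

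Leaf RNA was sequenced from 3 libraries of MuGDH64 and 3 libraries of GDH64. MuGDH64 is an aphid-resistant mutant line of Nicotiana tabacum that was bred from GDH64 after cobalt gamma irradiation, and GDH64 is the unirradiated parent. Both lines grew in the field in randomized blocks, and punches from middle leaves of several plants of a plot were pooled. Sampling took place 40, 55, 70 and 85 days after transplanting and in more than 1 season, and no label ties a library to a day, a season or a block. MuGDH64 is 1 irradiated line, so the effects of single mutations it may carry cannot be told apart. The series is titled for an NtCYC mutation with denser glandular trichomes. The question of the comparison is which leaf transcripts differ between the mutant line and its parent.

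Small heat shock proteins are chaperones that bind partly unfolded proteins without using ATP and hold them until chaperones that do use ATP refold them. They assemble into oligomers through the alpha-crystallin domain, and plants have many of them, in the cytosol and in organelles. Many are transcribed at low levels until heat or another stress, while some are made during development. The same fold occurs in the CS domain, which is found in co-chaperones of HSP90 such as p23 and SGT1 and in NudC-type proteins.

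The description divided the 69 gene models into 46 with an alpha-crystallin domain, 20 with a CS domain and 3 with the fold name only. Before the minimum level these subgroups held 94, 26 and 3 rows. Of the 54 rows left out, 20 were listed at 0 in every library, and 11 reached 1 FPKM in at least 1 library, with a highest value of 2.4 FPKM. Of the 69 gene models kept, 59 had at least 1 FPKM in all 6 libraries, 1 had that level in GDH64 libraries alone, and 0 had it in MuGDH64 libraries alone. The 3 models just inside the minimum were Nitab4.5_0001611g0050, Nitab4.5_0004605g0030 and Nitab4.5_0000615g0070, whose value in the library ranked 3 from the top was 1.08, 1.16 and 1.20 FPKM. The 3 just outside it were Nitab4.5_0000278g0010, Nitab4.5_0000785g0230 and Nitab4.5_0005728g0020, at 0.99, 0.89 and 0.86 FPKM. The table gives domain names and no gene symbols, so neither a subcellular class nor a tie to a named tobacco gene could be given to an alpha-crystallin model.

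The libraries summed to between 634425 and 719776 FPKM in MuGDH64 and between 728572 and 756316 FPKM in GDH64, and their read depth is unknown. The median log2 difference of all 32340 tested genes, MuGDH64 minus GDH64, was -0.176. Log2 differences below are therefore given relative to that median. They come from log2(FPKM + 1), and the added 1 makes differences of low-level genes look smaller. Adjusted p values are from limma with Benjamini-Hochberg adjustment over all tested genes and belong to the difference before the subtraction. With 3 libraries per line, they weigh that difference against the spread between these libraries, moderated by a trend over all tested genes. Plants were pooled, so spread between single plants is not measured. MuGDH64 library 3 had the lowest sum of all. It held the lowest value of its line for 61.7% of the tested genes.

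In MuGDH64 11 alpha-crystallin gene models fell and 2 rose, while 0 of 20 CS models passed the limma threshold of 0.05 (2 higher and 0 lower at an unadjusted p under 0.05). Of those that fell, Nitab4.5_0000319g0220 met the minimum level through the GDH64 libraries alone and had to differ. Among the called models with at least 1 FPKM in all 6 libraries, the largest fall on the log2 scale was in Nitab4.5_0001318g0050, with a mean 5.05-fold lower in MuGDH64, and the largest rise was in Nitab4.5_0000574g0090, with a mean 1.79-fold higher. The 13 calls make up 18.8% of the 69 gene models, where 11.9% of all tested genes were called. By direction 2.90% of the 69 were called higher and 15.9% lower, where the shares over all tested genes were 2.20% and 9.74%. The median relative difference of the 69 was 0.07. After quantile normalization, which gives each library the same distribution of values, 7 of the 69 were called higher and 5 lower, where 4.43% of all tested genes were called higher, 5.17% lower and 9.60% in all. Of these 12, 7 were among the 13 called on the deposited scale. On that scale, 3 were lower without GDH64 library 1 or 3 (68 models tested in each), 5 without MuGDH64 library 1 or 3, 6 without MuGDH64 library 2 and 4 without the minimum level. Leaving out MuGDH64 library 2 or GDH64 library 1 or 2 left 0 higher by limma (5, 5 and 6 at an unadjusted p under 0.05), and 1 was higher without GDH64 library 3 or without the minimum level. Over all tested genes, 449 of 31678 were higher without GDH64 library 1, 348 of 31873 without MuGDH64 library 2 and 496 of 46292 without the minimum level. In the same way 1345 of 31678 were lower without GDH64 library 1 and 1784 of 46292 without the minimum level. Without MuGDH64 library 1, 2 and 3, lower genes were 2215 of 31828, 1680 of 31873 and 1363 of 31957. The plot of level against difference shows that the calls on the deposited scale lie within 1 subgroup and over models from 1.71 to 152.7 FPKM. After quantile normalization the calls were not confined to it, with 3 of 20 CS models called higher and 0 lower.

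**Figure D1:**
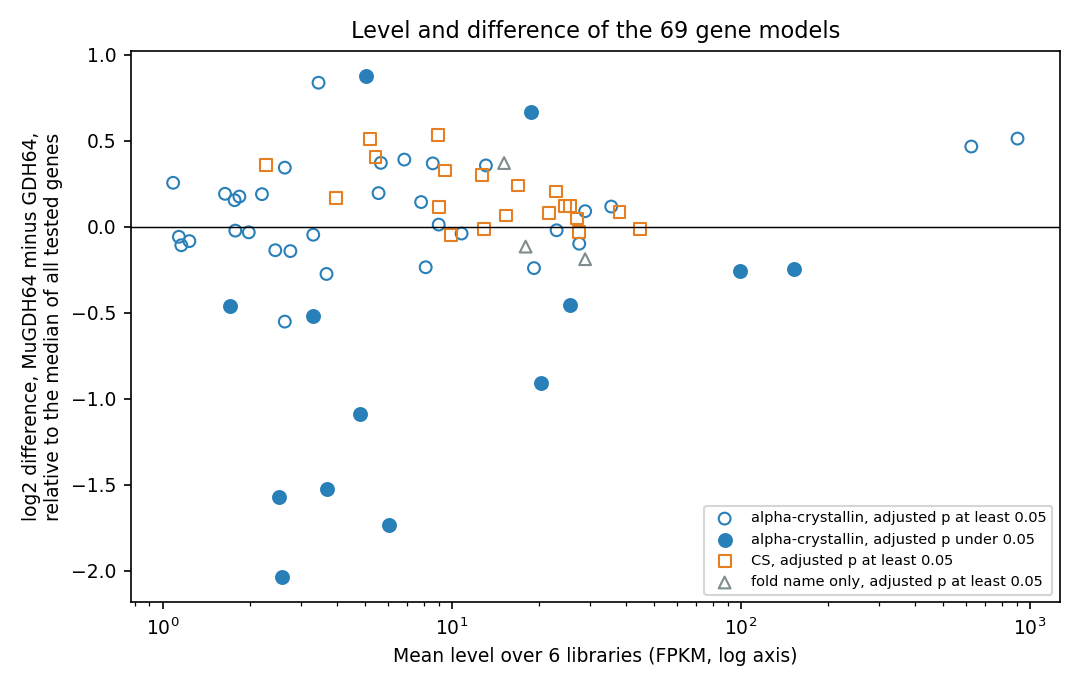
Each point is 1 of the 69 gene models, with its mean over 6 libraries in FPKM on a log axis and its log2 difference, MuGDH64 minus GDH64, relative to the median of all tested genes. Filled points passed the limma threshold on the deposited scale. All 13 are alpha-crystallin models, 11 of them below the line at 0 and 2 above it, while the 20 CS models lie between -0.05 and 0.54.

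A pair of alpha-crystallin models carried most of the transcript of the whole family. Nitab4.5_0003264g0010 stood at 1002.49, 1114.40 and 917.06 FPKM in MuGDH64 libraries 1, 2 and 3, against 805.93, 766.91 and 821.52 FPKM in GDH64 libraries 1, 2 and 3. All 3 MuGDH64 libraries lay above all 3 GDH64 libraries. The relative log2 difference was 0.51 (SE 0.09), and the deposited values missed the threshold (limma adjusted p = 0.0506), while the quantile-normalized values passed it (adjusted p = 0.0112). The next in level, Nitab4.5_0000008g0240, stood at 749.97, 755.94 and 566.73 FPKM in MuGDH64, against 561.47, 510.40 and 612.21 FPKM in GDH64. Here MuGDH64 library 3 lay among the GDH64 libraries, and the other 2 MuGDH64 libraries lay above them. Its relative log2 difference was 0.47 (SE 0.13, adjusted p = 0.162, and 0.0319 after quantile normalization). Both passed in the fit without MuGDH64 library 3, with adjusted p of 0.036 for Nitab4.5_0003264g0010 and 0.0445 for Nitab4.5_0000008g0240. That library held the lowest MuGDH64 value of both, and neither passed in any other fit without 1 library. Over the 15 alternatives Nitab4.5_0003264g0010 passed in 7, with limma adjusted p from 0.00903 to 0.16. Nitab4.5_0000008g0240 passed in 5, with adjusted p from 0.0319 to 0.365.

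The 2 models of next highest level both fell. Nitab4.5_0005259g0040 fell, at 134.94, 133.90 and 122.48 FPKM in MuGDH64 against 178.66, 160.45 and 185.62 FPKM in GDH64 (relative log2 difference -0.24, SE 0.09, limma adjusted p = 0.0227). Nitab4.5_0003133g0060 fell as well, at 85.55, 89.22 and 78.48 FPKM in MuGDH64 against 115.89, 100.44 and 127.10 FPKM in GDH64 (relative log2 difference -0.25, SE 0.11, adjusted p = 0.0359). In both, every MuGDH64 library lay below every GDH64 library. Without GDH64 library 1 the adjusted p was 0.0855 for the first and 0.108 for the second, and with the median-centred scale it was 0.19 and 0.265. Nitab4.5_0005259g0040 passed in 9 of 15 alternatives. Nitab4.5_0003133g0060 passed in 4 of 15, and its adjusted p was 0.0606 after quantile normalization.

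A ratio of 2 gene models within a library does not depend on the scaling of that library. These ratios were chosen after the levels had been seen and were not tested. The ratio of Nitab4.5_0003264g0010 to Nitab4.5_0005259g0040 was 7.43, 8.32 and 7.49 in MuGDH64 libraries, against 4.51, 4.78 and 4.43 in GDH64 libraries. That of Nitab4.5_0000008g0240 to Nitab4.5_0003133g0060 was 8.77, 8.47 and 7.22 in MuGDH64, against 4.85, 5.08 and 4.82 in GDH64. Neither ratio overlapped between the lines. For the first ratio this was fixed beforehand, since its 2 models each lay apart between the lines, in opposite directions. In the second, Nitab4.5_0003133g0060 lay apart and Nitab4.5_0000008g0240 overlapped. The ratios therefore restate the levels given above and are not separate evidence. Within each pair the ranges overlapped: Nitab4.5_0003264g0010 over Nitab4.5_0000008g0240 ran from 1.337 to 1.618 in MuGDH64 and from 1.342 to 1.503 in GDH64. Nitab4.5_0005259g0040 over Nitab4.5_0003133g0060 ran from 1.501 to 1.577 in MuGDH64 and from 1.46 to 1.597 in GDH64.

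The sum over all 69 gene models overlapped between the lines, with 2721.92, 2822.55 and 2309.93 FPKM in MuGDH64 libraries and 2475.93, 2310.18 and 2545.25 FPKM in GDH64 libraries. The share of the leading pair within it did not overlap. The pair of most abundant models held 64.4%, 66.3% and 64.2% of the sum in MuGDH64, against 55.2%, 55.3% and 56.3% in GDH64. The other 44 alpha-crystallin models summed to 521 ± 46.9 FPKM in MuGDH64 and 666 ± 62.5 FPKM in GDH64 (mean ± SD over the 3 libraries of a line, here and below). The 20 CS models summed to 337 ± 27.96 FPKM in MuGDH64 and 352 ± 13.9 FPKM in GDH64. In bulk leaf, fewer cells of a type and less RNA per cell cannot be told apart.

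**Figure D2:**
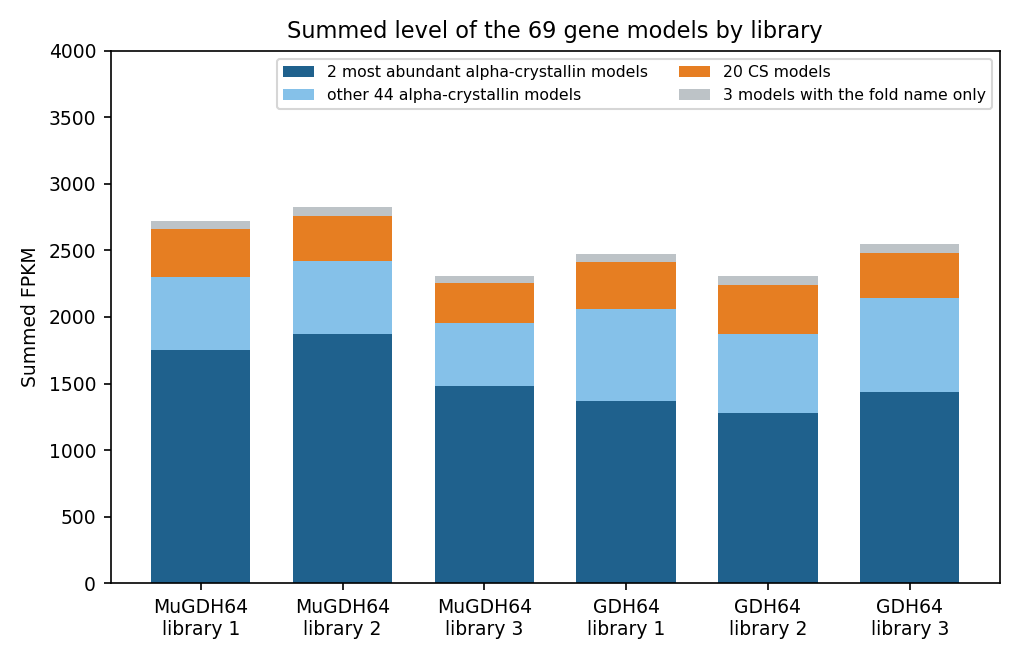
Bars give the summed FPKM of the 69 gene models in each library, divided into the 2 most abundant alpha-crystallin models, the other 44, the 20 CS models and 3 models with the fold name only. The lowest part of the bar stands at 1484 to 1870 FPKM in MuGDH64 and at 1277 to 1434 FPKM in GDH64, and the part above it at 467 to 549 FPKM in MuGDH64 and at 594 to 712 FPKM in GDH64.

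The largest falls were in alpha-crystallin models of low level. Nitab4.5_0000319g0220 stood at 0.12, 0.16 and 0.47 FPKM in MuGDH64, against 5.19, 3.17 and 6.39 FPKM in GDH64 (relative log2 difference -2.04, SE 0.23, limma adjusted p = 9.63e-04). No MuGDH64 library reached 1 FPKM, so this model met the minimum level through the GDH64 libraries alone and had to differ. Nitab4.5_0001318g0050 stood at 3.37, 1.58 and 1.08 FPKM in MuGDH64, against 9.81, 6.76 and 13.88 FPKM in GDH64 (-1.74, SE 0.30, adjusted p = 0.00708). Nitab4.5_0011739g0010 stood at 2.43, 1.27 and 0.28 FPKM in MuGDH64, against 5.09, 5.33 and 7.86 FPKM in GDH64 (-1.52, SE 0.32, adjusted p = 0.0139). In each of these 3 models the lines did not overlap. Nitab4.5_0000278g0020, described below, had a relative log2 difference of -1.57, between those of the last 2, and there the lines overlapped.

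Nitab4.5_0000319g0220 could not be tested without 1 of its GDH64 libraries, which left it below the minimum level. Nitab4.5_0001318g0050 passed in all 15 alternatives (adjusted p from 0.00205 to 0.0321), and Nitab4.5_0011739g0010 in 14, missing without the minimum level (0.0505).

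Among models of middle level, Nitab4.5_0000286g0060 fell to 15.71, 11.45 and 11.16 FPKM in MuGDH64, against 25.69, 28.40 and 29.61 FPKM in GDH64 (relative log2 difference -0.91, SE 0.14, limma adjusted p = 0.0031). It passed in all 15 alternatives, with adjusted p from 0.00104 to 0.0144. Nitab4.5_0000312g0130 fell to 19.67, 22.73 and 17.09 FPKM in MuGDH64, against 36.29, 25.81 and 31.87 FPKM in GDH64 (-0.45, SE 0.15, adjusted p = 0.0291, but 0.0785 after quantile normalization and 0.0928 without GDH64 library 1). In both models the lines did not overlap.

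Smaller falls were measured in 2 further low-level models. Nitab4.5_0000933g0030 averaged 2.29 ± 0.565 FPKM in MuGDH64 and 4.35 ± 1.04 FPKM in GDH64 (relative log2 difference -0.52, limma adjusted p = 0.0455). Nitab4.5_0000157g0240 averaged 1.12 ± 0.229 FPKM in MuGDH64 and 2.29 ± 0.263 FPKM in GDH64 (-0.46, adjusted p = 0.0306). Neither passed after quantile normalization, at 0.145 and 0.0863, or without GDH64 library 1, at 0.0547 and 0.0927.

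The 2 alpha-crystallin models that rose were of low and middle level. Nitab4.5_0000574g0090 stood at 5.98, 7.27 and 6.24 FPKM in MuGDH64, against 3.81, 2.84 and 4.26 FPKM in GDH64 (relative log2 difference 0.88, SE 0.15, limma adjusted p = 0.0212). Nitab4.5_0002238g0030 stood at 23.70, 23.31 and 19.25 FPKM in MuGDH64, against 16.24, 14.81 and 15.13 FPKM in GDH64 (0.67, SE 0.11, adjusted p = 0.0266). The lines did not overlap in either, and both passed after quantile normalization, at 0.0175 and 0.00544. Each missed in several fits without 1 library, with adjusted p up to 0.0711 and 0.0892. Nitab4.5_0003981g0080 stood at 3.20, 6.24 and 4.07 FPKM in MuGDH64 and at 2.91, 1.88 and 2.46 FPKM in GDH64, without overlap, and missed the threshold (0.84, SE 0.21, adjusted p = 0.076).

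**Figure D3:**
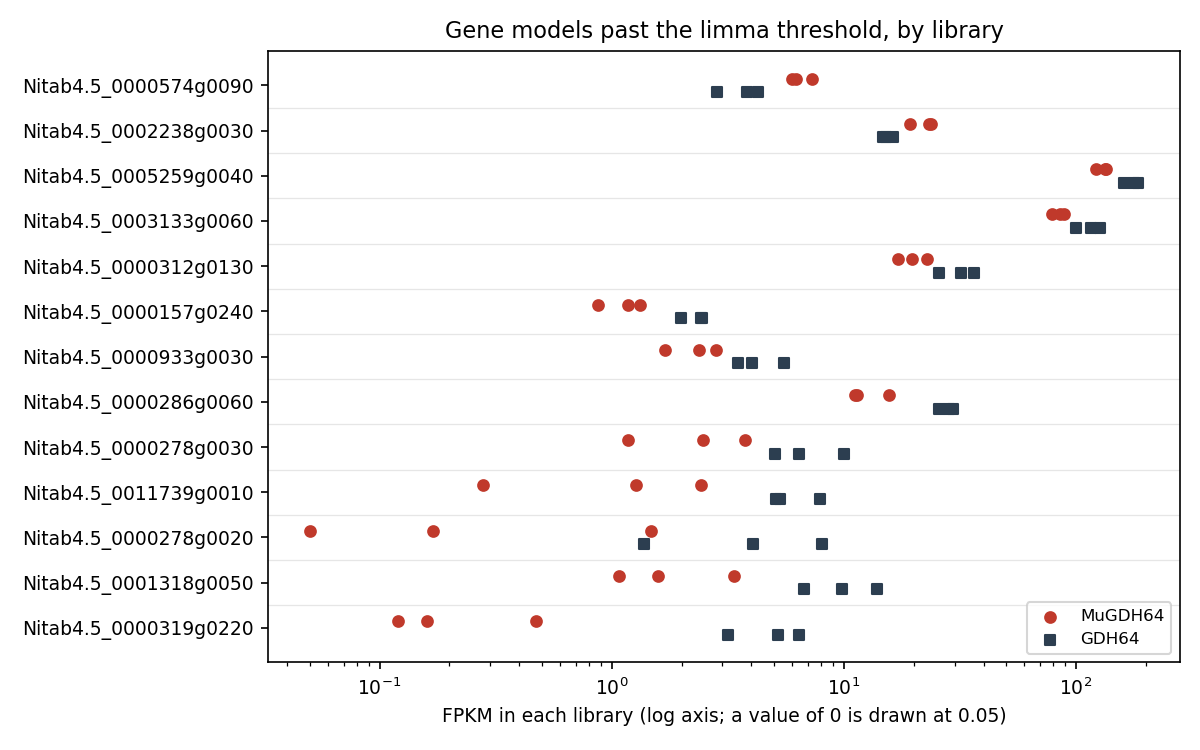
FPKM of the 13 called alpha-crystallin models in each library, on a log axis, with MuGDH64 as circles and GDH64 as squares and the models ordered by difference. The lines are apart in 12 of the 13 models. Nitab4.5_0000278g0020, with 1.48 FPKM in MuGDH64 library 3 and 1.38 FPKM in GDH64 library 2, is the exception.

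On the deposited values 7 of the 69 gene models had every MuGDH64 library above every GDH64 library and 16 had every MuGDH64 library below. Over all tested genes 5.68% and 31.8% did so, 37.5% together. Among the 69 these shares were 10.1% higher and 23.2% lower, 33.3% together. The share higher was above that of all tested genes, and the share lower and the 2 together were below it. None of these differences in share was tested.

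Several alpha-crystallin models lie side by side in the genome assembly. The first part of a gene identifier was taken as its scaffold and the second as its order along it. The 123 matched rows lay on 101 scaffolds, 16 of which held at least 2 of them, and 4 scaffolds held at least 2 of the models that met the minimum level. Scaffold 0000278 carried 4 alpha-crystallin rows with consecutive numbers. Of these Nitab4.5_0000278g0030 fell, at 2.48, 3.76 and 1.17 FPKM in MuGDH64 against 10.03, 5.06 and 6.43 FPKM in GDH64 (relative log2 difference -1.09, SE 0.30, limma adjusted p = 0.0304). It passed in 8 of 15 alternatives, and its adjusted p was 0.0788 after quantile normalization, 0.0844 without the minimum level and 0.0534 to 0.0813 in the 4 fits without 1 library in which it missed. Its neighbour Nitab4.5_0000278g0020 stood at 0, 0.17 and 1.48 FPKM in MuGDH64 against 4.08, 1.38 and 8.05 FPKM in GDH64 (-1.57, SE 0.48, adjusted p = 0.0497). That call was just within the threshold, the libraries of the 2 lines overlapped, and the adjusted p was 0.116 after quantile normalization. On the other side Nitab4.5_0000278g0040 stood at 3.60, 2.22 and 0.56 FPKM in MuGDH64 against 2.01, 1.54 and 4.78 FPKM in GDH64 (-0.14, adjusted p = 0.628). The first of the row, Nitab4.5_0000278g0010, was below the minimum level.

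Scaffold 0000286 carried 5 alpha-crystallin rows, and Nitab4.5_0000286g0060 was the 1 of them above 10 FPKM. Next along the scaffold, Nitab4.5_0000286g0070 was listed at 0 in every library. Nitab4.5_0000286g0090 averaged 1.65 ± 0.42 FPKM in MuGDH64 and 3.64 ± 2.08 FPKM in GDH64 (relative log2 difference -0.55, limma adjusted p = 0.13). On scaffold 0000312 the neighbour of the lowered Nitab4.5_0000312g0130, Nitab4.5_0000312g0140, averaged 2.21 ± 0.07 FPKM in MuGDH64 and 2.20 ± 0.536 FPKM in GDH64 (adjusted p = 0.957). On scaffold 0000744 neither Nitab4.5_0000744g0050 nor Nitab4.5_0000744g0040 passed, at 34.9 ± 7.83 and 2.85 ± 1.85 FPKM in MuGDH64 against 36.3 ± 7.44 and 2.44 ± 1.89 FPKM in GDH64. Tobacco is an allotetraploid, and the authors' counting could have shared or split reads among near-identical neighbours and homoeologs, so values of single models in such groups are uncertain.

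**Figure D4:**
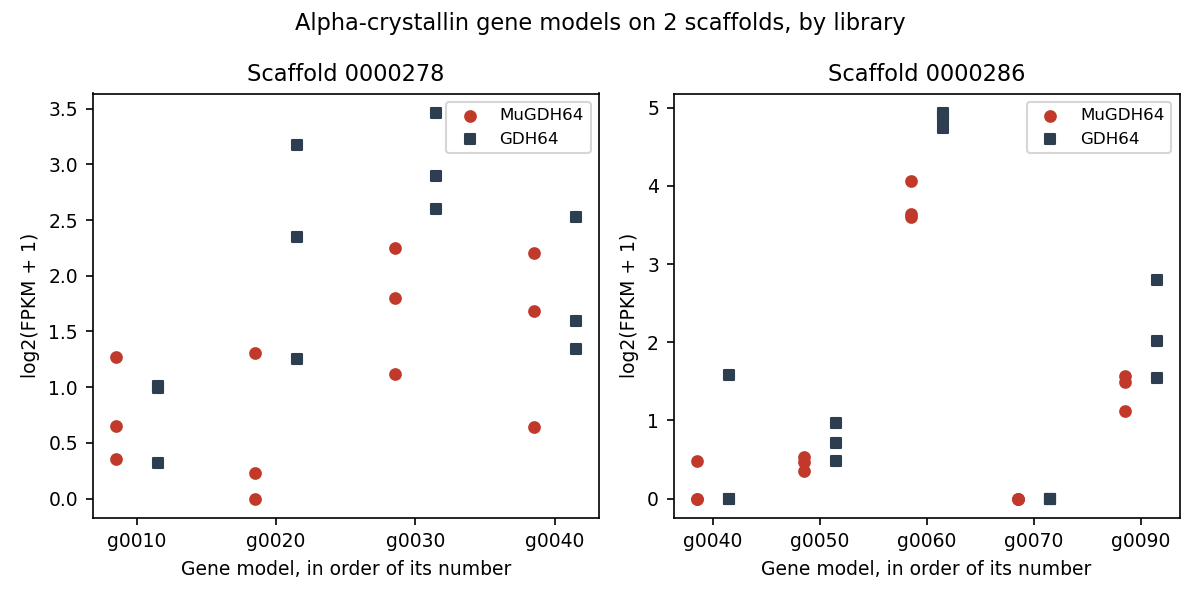
Points give log2(FPKM + 1) in each library for the alpha-crystallin rows of scaffolds 0000278 and 0000286 in the order of their numbers, MuGDH64 as circles left of GDH64 as squares. On the first scaffold the lines are apart at g0030 alone, and on the second at g0060, the most abundant row there, which stood at 11.16 to 15.71 FPKM in MuGDH64 and at 25.69 to 29.61 FPKM in GDH64.

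Alpha-crystallin models also varied between libraries of 1 line. Their median SD within a line was 0.217 on the log2(FPKM + 1) scale, against 0.124 for the CS models and 0.165 for all tested genes. Among models with a mean under 10 FPKM it was 0.221 for the 32 alpha-crystallin models and 0.184 for 20550 tested genes. The widest was Nitab4.5_0003254g0070, chosen after its values were seen, at 11.27, 5.43 and 0.85 FPKM in MuGDH64 and at 9.85, 4.89 and 1.19 FPKM in GDH64 (adjusted p = 0.988). Within GDH64, library 2 held the lowest value for 27 of 46 alpha-crystallin models (58.7%), for 3 of 20 CS models (15.0%) and for 22.5% of all tested genes. In MuGDH64, library 3 was lowest for 60.9% of alpha-crystallin models, close to the 61.7% over all tested genes. Without GDH64 library 2 limma called 10 of 68 tested models lower and 0 higher (6 higher at an unadjusted p under 0.05), and 9 of these 10 were among the 13 called with all libraries. These counts are not set beside the shares over all tested genes in that fit. With all libraries those shares were 9.74% lower and 2.20% higher.

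Further alpha-crystallin models of high level did not pass. Nitab4.5_0000073g0350 averaged 28.1 ± 5.36 FPKM in MuGDH64 and 29.7 ± 3.81 FPKM in GDH64 (limma adjusted p = 0.727). Nitab4.5_0007482g0020 averaged 24.5 ± 1.48 FPKM in MuGDH64 and 30.7 ± 9.50 FPKM in GDH64 (adjusted p = 0.344), where GDH64 library 1, at 41.21 FPKM, stood above the other 5. A model that joins the alpha-crystallin domain to an ARID DNA-binding domain, Nitab4.5_0000464g0040, averaged 8.45 ± 0.945 FPKM in MuGDH64 and 9.57 ± 0.644 FPKM in GDH64 (adjusted p = 0.37).

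The 20 CS models had means from 2.27 to 44.7 FPKM, and none was called on the deposited scale. After quantile normalization 3 of the 20 were called higher and 0 lower. The 2 of highest level, Nitab4.5_0000472g0280 and Nitab4.5_0007653g0010, join tetratricopeptide repeats, a CS domain and an SGS domain. These are the domains of SGT1, which in Arabidopsis and Nicotiana benthamiana works with HSP90 on immune receptors. Nitab4.5_0000472g0280 averaged 41.7 ± 3.65 FPKM in MuGDH64 and 47.6 ± 3.28 FPKM in GDH64 (relative log2 difference -0.01, adjusted p = 0.241). Nitab4.5_0007653g0010 averaged 36.8 ± 3.21 FPKM in MuGDH64 and 39.3 ± 2.86 FPKM in GDH64 (0.08, adjusted p = 0.57). In both the lines overlapped.

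The CS model with the largest difference, Nitab4.5_0000433g0070, stood at 11.07, 10.76 and 8.84 FPKM in MuGDH64, against 7.38, 7.60 and 8.17 FPKM in GDH64. The lines were apart, and the relative log2 difference of 0.54 (SE 0.12) missed the limma threshold as deposited (adjusted p = 0.0831) and passed it after quantile normalization (0.0143). The other 2 that passed there, Nitab4.5_0003416g0030 and Nitab4.5_0005805g0070, averaged 5.91 ± 0.509 and 5.95 ± 0.148 FPKM in MuGDH64 against 4.51 ± 0.807 and 4.95 ± 0.524 FPKM in GDH64. The 3 models with the fold name only were not called either, with 0 higher and 1 lower at an unadjusted p under 0.05. That 1 was Nitab4.5_0000527g0170, at 25.1 ± 2.54 FPKM in MuGDH64 and 32.7 ± 4.44 FPKM in GDH64 (adjusted p = 0.091, and 0.0429 with the library number as a block).

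Lists of partner chaperones held calls in both directions, except the ClpA/B list, whose 2 calls were lower. For comparison, 2.20% of all tested genes were called higher and 9.74% lower. Heat shock factors, the transcription factors that bind heat shock elements before chaperone genes, had 4 of 35 tested models higher and 1 lower. HSP70 models, which refold clients with ATP, had 9 of 43 higher and 6 lower. HSP90 models, which act late in the folding of kinases and receptors, had 4 of 15 higher and 2 lower. The ClpA/B list, which includes the HSP100 disaggregases, had 0 of 20 higher and 2 lower by limma (0 and 5 at an unadjusted p under 0.05). DnaJ proteins, which stimulate HSP70, had 7 of 211 higher (3.32%) and 20 lower (9.48%). BAG proteins, HSP70 exchange factors, had 1 of 18 higher and 5 lower, and FKBP-type isomerases had 3 of 43 higher and 2 lower. The chaperonin list had 5 of 121 higher and 12 lower, but 58 of these were GroES-like dehydrogenases, and the other 63 had 1 higher and 2 lower. The lower shares of the DnaJ, ClpA/B and whole chaperonin lists were close to that of all tested genes, so these counts alone do not set those lists apart. No test set these lists against each other, against all tested genes or against the small heat shock proteins.

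After quantile normalization the counts were 4 higher and 1 lower for heat shock factors, 11 and 6 for HSP70, 6 and 1 for HSP90, and 4 higher and 5 lower for the alpha-crystallin models. They were 13 and 16 for DnaJ proteins, 1 and 4 for BAG proteins, 3 and 1 for FKBP-type isomerases and 0 and 1 for the ClpA/B list. Over all tested genes 4.43% were called higher and 5.17% lower on the quantile-normalized values. In the chaperonin list the larger count changed sides, with 13 higher and 7 lower, and the rows that were not GroES-like dehydrogenases had 6 higher and 0 lower. Of the genes with the smallest adjusted p, a heat shock factor, Nitab4.5_0002839g0010, stood at 3.51, 4.74 and 2.90 FPKM in MuGDH64 and at 0.11, 0 and 0.23 FPKM in GDH64 (relative log2 difference 2.25, limma adjusted p = 4.89e-04). It met the minimum level through the MuGDH64 libraries alone and had to differ. Another, Nitab4.5_0000586g0140, stood at 8.18, 5.60 and 5.20 FPKM in MuGDH64 and at 1.09, 1.11 and 0.99 FPKM in GDH64 (1.98, adjusted p = 6.51e-04). The HSP70 model Nitab4.5_0000015g0210 averaged 12.0 ± 1.24 FPKM in MuGDH64 and 4.05 ± 0.518 FPKM in GDH64. The HSP70 model Nitab4.5_0009965g0010 averaged 8.45 ± 1.08 FPKM in MuGDH64 and 2.28 ± 0.511 FPKM in GDH64. Of the HSP90 models, Nitab4.5_0000152g0350 rose to 151.34 to 159.60 FPKM in MuGDH64, against 10.07 to 11.29 FPKM in GDH64. Nitab4.5_0000598g0060 fell to 56.4 ± 2.83 FPKM in MuGDH64, against 94.9 ± 13.2 FPKM in GDH64.

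The other lists had falls among their genes of smallest adjusted p. The DnaJ model Nitab4.5_0015004g0010, the most abundant of those named, fell to 454 ± 18.1 FPKM in MuGDH64, against 772 ± 89.99 FPKM in GDH64, and Nitab4.5_0006983g0010 to 5.65 ± 0.56 FPKM, against 12.5 ± 0.704 FPKM. The BAG models Nitab4.5_0002234g0100 and Nitab4.5_0001306g0030 fell to 22.6 ± 1.34 and 4.75 ± 0.786 FPKM in MuGDH64, against 37.1 ± 1.01 and 8.81 ± 0.56 FPKM in GDH64. The ClpA/B models Nitab4.5_0000684g0090 and Nitab4.5_0001150g0030 fell to 16.6 ± 1.32 and 16.9 ± 0.531 FPKM in MuGDH64, against 25.6 ± 3.83 and 23.9 ± 3.46 FPKM in GDH64. The second of these passed in 5 of 15 alternatives, with an adjusted p of 0.0853 after quantile normalization, and the first missed in 4 fits without 1 library. Of the FKBP-type isomerases Nitab4.5_0000072g0450 rose to 11.0 ± 0.64 FPKM in MuGDH64, against 3.13 ± 0.191 FPKM in GDH64, and Nitab4.5_0010531g0020 fell to 5.82 ± 1.58 FPKM in MuGDH64, against 32.5 ± 4.37 FPKM in GDH64. The chaperonin list's smallest adjusted p belonged to a pair of GroES-like dehydrogenases, of which Nitab4.5_0007704g0020 rose and Nitab4.5_0002473g0070 fell.

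**Figure D5:**
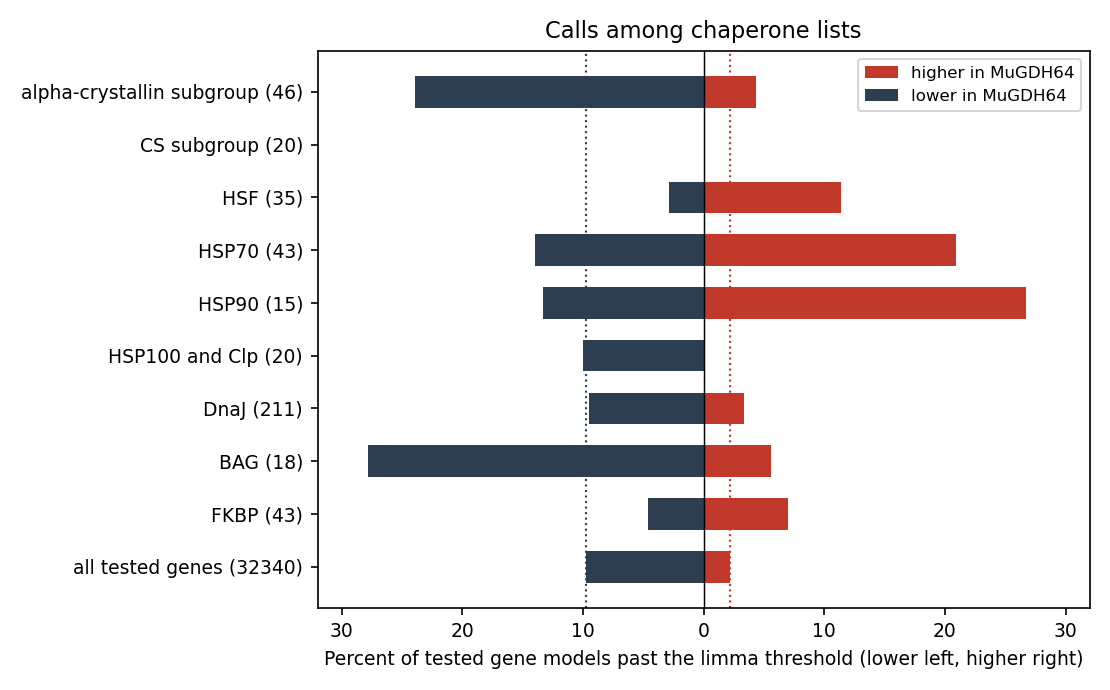
Bars give the percent of tested gene models past the limma threshold, higher in MuGDH64 to the right and lower to the left, for each list with its number of tested models in brackets. Dotted lines mark 2.20% and 9.74%, the shares over all tested genes. The alpha-crystallin bar reaches 4.35% to the right and 23.9% to the left, and the HSP90 bar 26.7% and 13.3%.

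Some markers of leaf cell types were called as well, where 2.20% of all tested genes were called higher and 9.74% lower, and their part in these results was not tested. Of 71 tested chlorophyll a/b-binding and Rubisco small subunit models, taken here as markers of leaf mesophyll, 2 rose and 14 fell. Their summed level was 14162 to 14838 FPKM in MuGDH64, within the 13923 to 15718 FPKM of GDH64. Of 77 lipid transfer and homeobox START models, taken by domain name alone as markers of epidermis and trichomes, 6 rose and 19 fell. Their sum was 3261 to 3848 FPKM in MuGDH64 and 3534 to 4628 FPKM in GDH64. Of 23 cyclin and kinesin models, taken likewise for dividing cells, 0 rose and 5 fell by limma (1 and 8 at an unadjusted p under 0.05). Their sum was 110 to 130 FPKM in MuGDH64 and 142 to 179 FPKM in GDH64. After quantile normalization the counts of higher and lower models were 5 and 7 for mesophyll, 7 and 14 for epidermis and trichomes, and 0 and 3 for dividing cells. None of 4 sieve element occlusion models was called, 0 also at an unadjusted p under 0.05. Of the marker rows before the minimum level, 11 of 90, 109 of 241, 7 of 72 and 0 of 8 were listed at 0 in every library.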

How the data were processed

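Per the labels' protocols, total RNA was extracted with TRIzol, TruSeq libraries were made and read as pairs. TopHat2 and Cufflinks are named, without versions, per the submitters' processing notes. A genome build is not given in the sources used here. In the deposited table the header names no unit, and its values were taken as FPKM from the authors' tools. Columns were matched by library name. The authors' means were not used. Depth is unknown.

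The test was limma 3.58.1 (R 4.3.3) with a mean-variance trend, run on log2(FPKM + 1) with the line as the only term. Rows entered it with 1 FPKM or more in 3 libraries or more. Tests were two-sided, with Benjamini-Hochberg adjustment and a threshold of 0.05. The fit was tested on simulated data. Named models are those called, the 10 of highest mean, the 5 largest differences each way and those beside the minimum level, with up to 2 genes per chaperone list. Models and lists were chosen with earlier results of these data known. The closing section gives 15 alternatives. Python 3.11.15, pandas 2.3.3 and matplotlib 3.10.9 made tables and plots.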

Additional observations from a re-analysis of the deposited data

How the results depend on the processing

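Nitab4.5_0001318g0050 and Nitab4.5_0000286g0060 passed in all 15 alternatives, and of the 50 gene models named with a difference, 16 of them partner chaperones, 0 changed sign in an alternative where the difference passed there or on the deposited scale. Counts of lower and of higher calls depended on the scaling, which shifts all genes. On the deposited scale 11 of the 69 gene models were lower and 2 higher, against 5 and 7 after quantile normalization, 4 and 7 after median-centring, and 7 and 5 after rescaling to a sum of 1000000. Among all tested genes 712 were higher and 3151 lower, against 1433 and 1671 after quantile normalization and 1940 and 1384 after median-centring. Without a minimum level 2280 of 46292 genes were called, with 4 of the 69 lower and 1 higher, and 0 of 34 further matched rows were called by limma (2 at an unadjusted p under 0.05). With library weights 6284 genes were called, 1266 higher and 5018 lower, and 13 of the 69 were lower and 5 higher. The median log2 difference of the 69 moved to 0.091 after median-centring, before subtraction of the median of all genes. In the fits without 1 library (68 of the 69 models tested where it was from GDH64), 1794 to 3141 genes were called over the whole table, and 3 to 10 of the 69 were lower and 0 to 3 higher. The count of lower models was 3 without GDH64 library 1, 3 without GDH64 library 3, and 5, 6 and 5 without MuGDH64 library 1, 2 and 3. Leaving out MuGDH64 library 2 gave 0 higher models by limma, as did leaving out GDH64 library 1 or 2 (5, 5 and 6 at an unadjusted p under 0.05), and 1 was higher without GDH64 library 3. Higher genes over the whole table were 348 of 31873 without MuGDH64 library 2 and 449 of 31678 without GDH64 library 1. The cause was not tested.

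No label says whether libraries of the same number were sampled together, and the values do not settle it. Deviations of same-numbered libraries from their line means correlated at 0.0148, 0.0131 and 0.0512 over all tested genes. Over the 69 gene models they correlated at 0.177, -0.0854 and 0.266. Libraries of different numbers correlated at -0.301 to 0.194 over the 69. With the library number as a replicate block 8 of the 69 were lower and 2 higher, and 3991 genes were called in all, and 9 of the 13 calls were kept.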
